A study of Mus musculus with 14 samples.

Results

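The clustered protocadherins are cell adhesion proteins of neurons whose genes lie side by side in the alpha, beta and gamma clusters. They were chosen here by gene symbol, as every row of the deposited count table named as a member of 1 of these clusters. The rule found 58 genes among the 36118 in the table, with 14 in the alpha, 22 in the beta and 22 in the gamma cluster. RNA was measured in the hippocampus of 14 mice on postnatal day 15, with 1 library per mouse. The WT-RA group (n = 4) were wild-type C57/BL6 mice in room air and the WT-O2 group (n = 4) wild-type mice in 85% O2 from postnatal day 1 to day 14. The KO-RA (n = 3) and KO-O2 (n = 3) groups were GSDMD-KO mice, labelled with the same strain, under the same exposures, in which every cell carries a small CRISPR deletion in the fifth exon of Gsdmd, the gene of the pore-forming protein gasdermin D. The wild-type mice were littermates of the KO colony, but the WT and KO mice come from separate ranges of mouse numbers, so genotype and number range cannot be told apart. Mice are numbered within a group in the order of their records.

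Each alpha and gamma gene has its own promoter and a large first exon, which is spliced to constant exons shared by the whole cluster, whereas beta genes are single exons with no constant part. A neuron uses a few of these promoters, by a choice that depends on CTCF, cohesin and DNA methylation. The proteins on its surface bind only the same protein on a facing membrane. That recognition underlies self-avoidance of dendrites, and gamma members are also known for the survival of interneurons. The C-type genes at the ends of the clusters, Pcdhac1, Pcdhac2, Pcdhgc3, Pcdhgc4 and Pcdhgc5, are used by neurons more widely than the others. Since RNA was taken from whole tissue, fewer cells of a type and less RNA per cell cannot be told apart here.

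The libraries summed to between 27272270 and 28257496 estimated counts. Gsdmd, the targeted gene, had 41 to 51 counts in WT-RA and 22 to 42 in KO-RA libraries, which overlap. In O2 it had 51 to 63 counts in WT and 36 to 40 in KO libraries, which do not. The paper reports no measurable Gsdmd transcripts in KO brains by qRT-PCR, without showing the data. A sum over transcripts cannot tell deleted from intact ones. Hippocampal markers were present in every library, but their summed level was 643 to 1055 CPM (the count scaled to the library total) in WT and 1345 to 1686 CPM in KO mice. Striatal markers summed to 411 to 951 CPM in WT and 160 to 268 CPM in KO mice, and thalamic markers to 114 to 702 CPM in WT and 111 to 129.9 CPM in KO mice. The title of WT-O2 mouse 4 gives hyperoxia and its treatment label room air, and the main results of WT-O2 vs WT-RA are given both ways.

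No clustered protocadherin gene was called in any comparison. A call needed p below 0.05, q below 0.1 and a higher group at least 25% above the lower one. Here p comes from edgeR's quasi-likelihood test, and q adjusts it by Benjamini-Hochberg for all 16637 tested genes. Of the 58 members, 57 passed the filter on low counts, and Pcdhb1, with 0 to 6 counts per library, did not. Genotype gave many calls in the rest of the table, so the members were set against that background. In KO-RA vs WT-RA, 10.4% of all genes tested were called and 0 of 57 members. The same comparison in O2, KO-O2 vs WT-O2, called 6.86% of all genes and 0 of 57 members. For exposure, the comparison WT-O2 vs WT-RA called 0.643% of all genes and KO-O2 vs KO-RA 0.012%, again with 0 of 57 members in each. The interaction of genotype and exposure called 0% of all genes. DESeq2 on the same libraries called 1 member, Pcdhga11 in KO-RA vs WT-RA, and 0 in the other 4 comparisons.

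The levels of the members differed widely along each cluster. Levels between genes are given as CPM per kilobase of the longest annotated transcript. In the alpha cluster Pcdhac2, the last gene and known for the spacing of serotonergic axons, had 20.1 CPM per kilobase on average over all mice, and Pcdha12 followed with 4.45. The lowest alpha gene was Pcdha8 with 0.251 CPM per kilobase. In the gamma cluster the last 3 genes stood above the rest, with 49.2 CPM per kilobase for Pcdhgc3, 29.5 for Pcdhgc4 and 23.2 for Pcdhgc5. Pcdhgc4 is known to be needed for the survival of interneurons, and Pcdhgc5 binds GABA-A receptors. The highest of the other gamma genes were Pcdhga3 with 9.91 and Pcdhga11 with 9.69 CPM per kilobase, and the lowest was Pcdhgb8 with 0.582. Beta genes were low and even: apart from Pcdhb1 with 0.0375 they ran from 0.617 CPM per kilobase in Pcdhb6 to 2.69 in Pcdhb9. By CPM, without division by length, the highest beta gene was Pcdhb22 with 11.97.

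**Figure D1:**
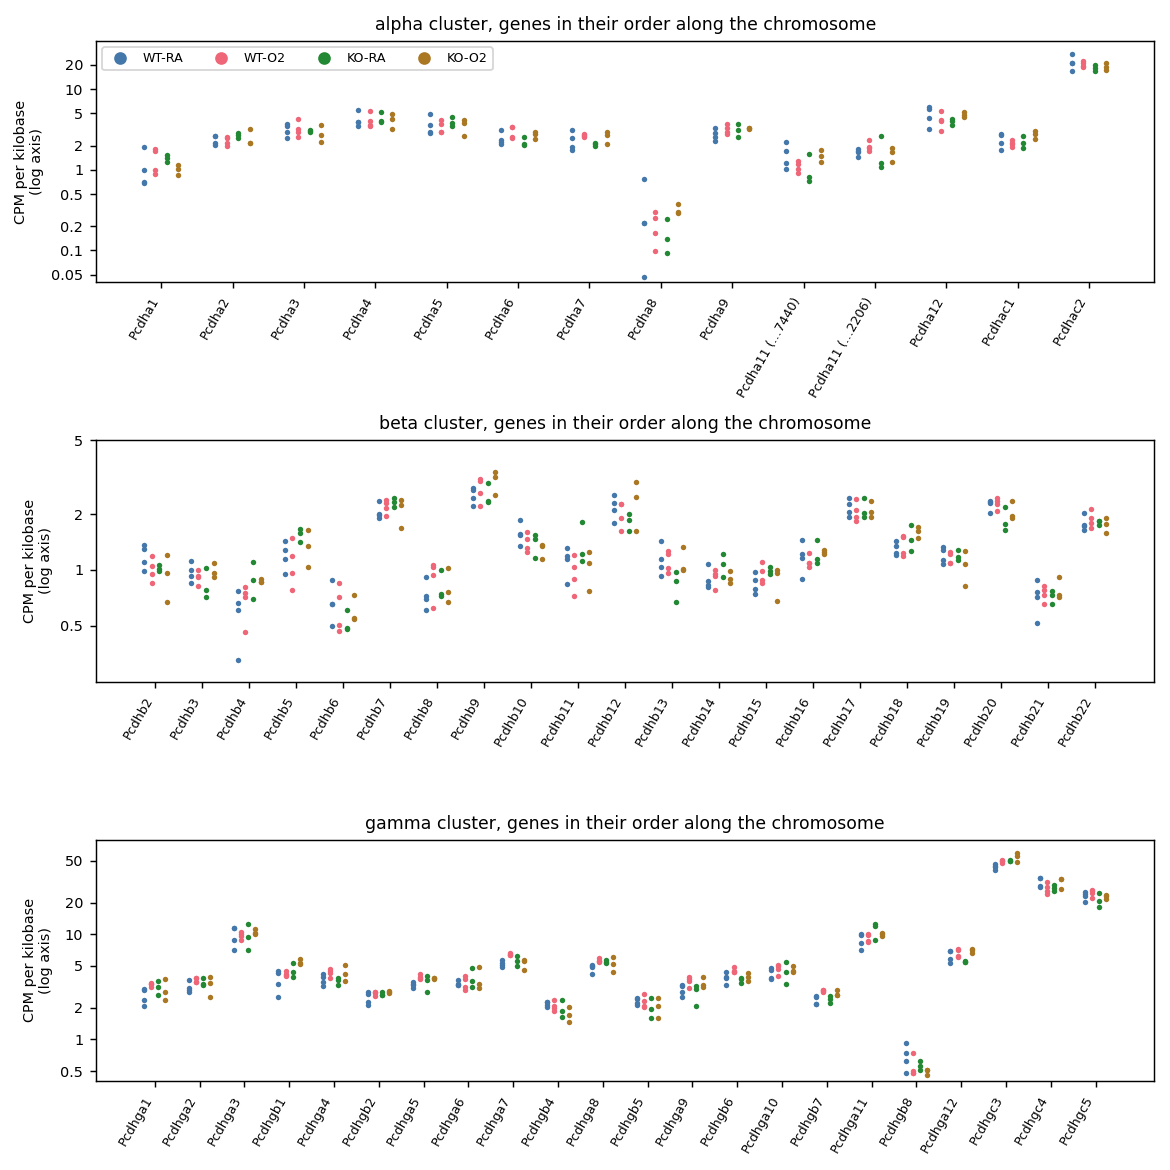
Level of each tested clustered protocadherin gene in each of the 14 mice, in CPM per kilobase of the longest annotated transcript on a log axis, with the genes of each cluster in their order along the chromosome and 1 point per mouse coloured by group. Pcdhac2 at the end of the alpha cluster and Pcdhgc3, Pcdhgc4 and Pcdhgc5 at the end of the gamma cluster lie above the other genes of their clusters in all groups. The pair of rows with the symbol Pcdha11 is marked by the last digits of their gene identifiers.

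The division of the RNA among the members overlapped between groups in most measures. Per kilobase, gamma genes made up 64.7% to 71.8% of the summed level of all members in the 14 libraries, alpha genes 17.9% to 24.4% and beta genes 9.62% to 11.4%. The 5 C-type genes made up 44.7% to 50.3%. Within the gamma cluster, the 3 C-type genes held 56.6% ± 2.57 (SD, n = 4) in WT-RA, 54.8% ± 1.51 (SD, n = 4) in WT-O2, 55.4% ± 2.28 (SD, n = 3) in KO-RA and 56.6% ± 1.52 (SD, n = 3) in KO-O2. The 12 Pcdhga genes held 30.4% to 36.4% and the 7 Pcdhgb genes 9.62% to 11.01% of the gamma cluster. Within the alpha cluster, Pcdhac2 alone held 38.4% to 41.4% in WT-RA, 37.3% to 39.4% in WT-O2, 35.4% to 38.3% in KO-RA and 34.4% to 39.6% in KO-O2, so every WT-RA mouse lay above every KO-RA mouse. Pcdhac1 held 4.88% to 5.56% in KO-O2, above the 3.88% to 4.76% in KO-RA and the 3.47% to 4.68% in WT-O2. Of 40 comparisons of 10 such shares these 3 did not overlap, and the shares were not tested.

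The estimates of single members rest on unequal amounts of sequence of their own. In the mouse annotation, the longest transcripts of the alpha genes share 3 exons of 2860 bases in all, those of the gamma genes share 3 exons of up to 2119 bases, and beta genes share none. The share of a gene's 31-base stretches found in no other gene had a median of 35.1% in the alpha, 44.6% in the gamma and 88.2% in the beta cluster. It was lowest in Pcdha4 with 0.488%, Pcdhga10 with 0.617% and the Pcdha11 row ENSMUSG00000102206 with 1.52%, where other annotated transcripts cover the same bases, and the values of these genes are uncertain. Pcdhgc3 came next with 23.2%, and Pcdhga11 had 26.7%, both below the gamma median. Of the estimated counts of alpha genes, 100% were not whole numbers, and neither were 99.7% of those of gamma and 47.1% of those of beta genes (tolerance 1e-06). The other Pcdha11 row, ENSMUSG00000007440, lies where RefSeq places Pcdha10.

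Mice of 1 group differed more in most of these genes than in the median gene: 14 of 14 alpha, 19 of 21 beta and 13 of 22 gamma genes lay above it. As many of all genes lie above that median as below it, so the gamma count is near that share. The comparison was not restricted to genes with similar counts. The SD of log2 CPM around the group means had a median of 0.28 over 14 alpha genes, 0.19 over 21 beta genes and 0.17 over 22 gamma genes, against 0.15 over all genes tested. Pcdha8 varied most, with an SD of 0.95, and Pcdhgc3 least, with 0.08. Among beta genes, those with fewer counts varied more, with Spearman's rho of -0.682 between mean count and SD over 21 genes of the same libraries. Deviations from the group means went together in most pairs of genes: the median Pearson correlation was 0.387 over 91 pairs of alpha genes, 0.302 over 210 pairs of beta genes and 0.167 over 231 pairs of gamma genes, each over the same 14 libraries and their scaling. For the summed levels of the clusters, r was 0.743 between the deviations of alpha and beta, 0.526 between alpha and gamma and 0.521 between beta and gamma. These come from 14 libraries, with fewer free values because the group means were taken out. The correlations were not tested and not compared with those of other genes.

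The summed level of the alpha cluster in WT-RA mice 1 to 4 was 244, 298, 379 and 284 CPM, and in WT-O2 mice 1 to 4 it was 334, 305, 275 and 269.8 CPM. In KO-RA mice 1 to 3 it was 307, 264 and 266 CPM, and in KO-O2 mice 1 to 3 it was 269, 306 and 301 CPM. WT-RA mouse 3 was the highest and WT-RA mouse 1 the lowest of all, so that every other group lay within the range of WT-RA. Summed beta levels lay between 109 and 128 CPM in WT-RA, 106 and 127 CPM in WT-O2, 115 and 128 CPM in KO-RA, and 106 and 132 CPM in KO-O2. The groups of the beta cluster overlapped in every comparison as well.

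The gamma cluster was the exception in WT mice. Its summed level was 858, 863, 891 and 818 CPM in WT-RA mice 1 to 4 and 924, 901, 908 and 924 CPM in WT-O2 mice 1 to 4. The ranges did not overlap, but the means of 858 ± 30.1 CPM (SD, n = 4) and 914 ± 11.6 CPM (SD, n = 4) differed by only 1.07-fold. With WT-O2 mouse 4 counted as WT-RA, as its treatment label says, the ranges overlapped, at 901 to 924 CPM in WT-O2 and 818 to 924 CPM in WT-RA. In the KO mice it was 932, 878 and 821 CPM in KO-RA mice 1 to 3 and 906, 949 and 975 CPM in KO-O2 mice 1 to 3. These ranges overlapped through KO-RA mouse 1, and the means differed by 1.08-fold. With library size alone in place of TMM the KO ranges did not overlap, at 831 to 902 CPM and 909 to 949 CPM. Between genotypes, the gamma ranges overlapped in room air and in O2. No test was made of the sums.

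**Figure D2:**
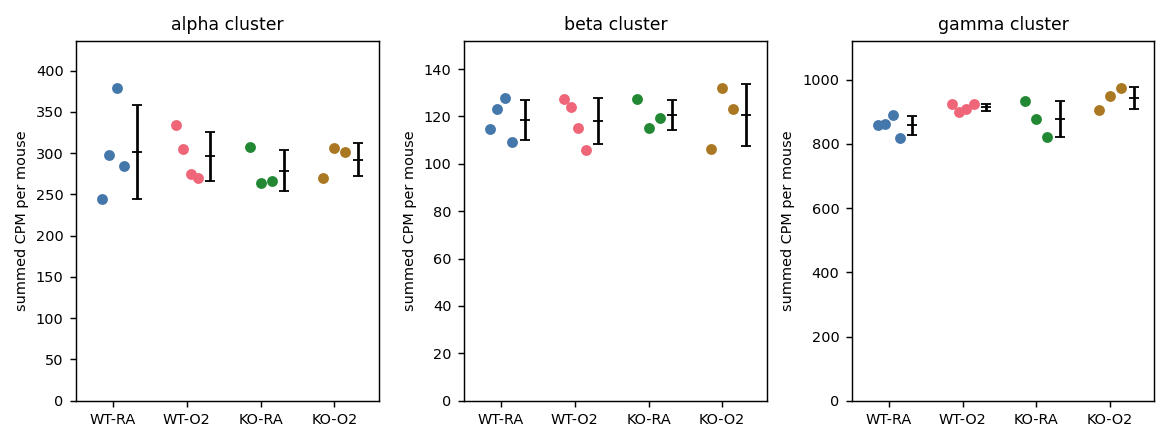
Summed CPM of the tested genes of the alpha, beta and gamma clusters in each mouse (points), with the mean and SD of each group beside them as a bar; the axes start at 0. The 4 WT-O2 mice lie above the 4 WT-RA mice in the gamma cluster, and the groups overlap in the alpha and beta clusters.

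In WT mice most gamma genes had a higher level under hyperoxia, without any member reaching a call, and whether the clusters differed in this was not tested. The median log2 fold change in WT-O2 vs WT-RA was 0.17 over the 22 gamma genes, of which 17 were higher in O2, against -0.04 over 14 alpha genes, -0.03 over 21 beta genes and -0.01 over all genes tested. At an unadjusted p below 0.05, 7 of 57 members (12.3%) differed, against 12.2% of all genes tested. All 7 were gamma genes and higher in WT-O2, which is 31.8% of the gamma cluster, where 5.69% of all genes tested were higher at that p. The groups did not overlap in 6 members, again all gamma and higher in WT-O2, where 5.99% of all genes did not overlap and 2.95% did not overlap and were higher. With WT-O2 mouse 4 as WT-RA, 3 gamma genes were higher at that p in place of 7, and 3 members did not overlap in place of 6 (Pcdhb8, Pcdhgb6 and Pcdhga1), against 5.79% of all genes. The gamma median was then 0.13, with 17 of 22 genes higher in O2, and the calls over all genes went from 107 to 6. Marker levels also differed between these groups in median, with 0.26 over 10 hippocampal markers (643 to 920 CPM in WT-RA and 847 to 1055 CPM in WT-O2) and -0.52 over 7 oligodendrocyte markers (7162 to 17512 CPM and 4601 to 11740 CPM), none of them called. Their part in the gamma values was not tested. The gamma genes share constant exons, so the 22 values are not independent of each other.

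The members named next were chosen after their values were seen, as those with the smallest p in this comparison, and Pcdhgb7, Pcdhga7 and Pcdhgc3 overlap between the groups once WT-O2 mouse 4 counts as WT-RA. Pcdhgb7 had 11.9, 10.2, 10.4 and 12.1 CPM in WT-RA mice 1 to 4 and 14.0, 13.7, 13.3 and 13.9 CPM in WT-O2 mice 1 to 4. Every WT-O2 mouse was above every WT-RA mouse, with a log2 fold change of 0.30 ± 0.08 (SE) and q = 0.14 in edgeR's test, or 0.23 ± 0.10 (SE) and q = 0.439 with that mouse as WT-RA. Pcdhga7 had 27.2, 25.0, 24.3 and 23.2 CPM in WT-RA and 31.6, 30.4, 29.8 and 30.96 CPM in WT-O2. It likewise did not overlap, with a log2 fold change of 0.30 ± 0.08 (SE) and q = 0.144 in edgeR's test, or 0.23 ± 0.10 (SE) and q = 0.433 with that mouse as WT-RA. Pcdhgc3, the most abundant member and known to promote dendrite branching, had 217, 208, 204 and 193 CPM in WT-RA and 234, 224, 236 and 238 CPM in WT-O2. Its difference was small and even across mice, at 0.18 ± 0.06 (SE) on the log2 scale with q = 0.225 in edgeR's test, or 0.13 ± 0.07 (SE) and q = 0.56 with that mouse as WT-RA. The largest gamma difference was 0.36 ± 0.15 (SE) in Pcdhga1, with q = 0.336, and the lowest was -0.34 ± 0.20 (SE) in Pcdhgb8.

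Alpha and beta genes had values on both sides of 0. The widest alpha values in WT-O2 vs WT-RA were a log2 fold change of 0.33 in Pcdha1, with a 95% interval from -0.30 to 0.97, and of -0.61 in Pcdha8, with an interval from -1.83 to 0.60. Pcdha8 had 1.16, 1.16, 4.099 and 0.251 CPM in WT-RA mice 1 to 4, so WT-RA mouse 3 was the highest, and without that mouse the value was 0.34. Among beta genes the values ran from -0.24 in Pcdhb2 to 0.31 in Pcdhb8. For 46 of 57 members the 95% interval of the fold change lay within 1.5-fold in both directions, and for 9 within the 25% that a call needs. For most members a change of that size thus lay within the interval.

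**Figure D3:**
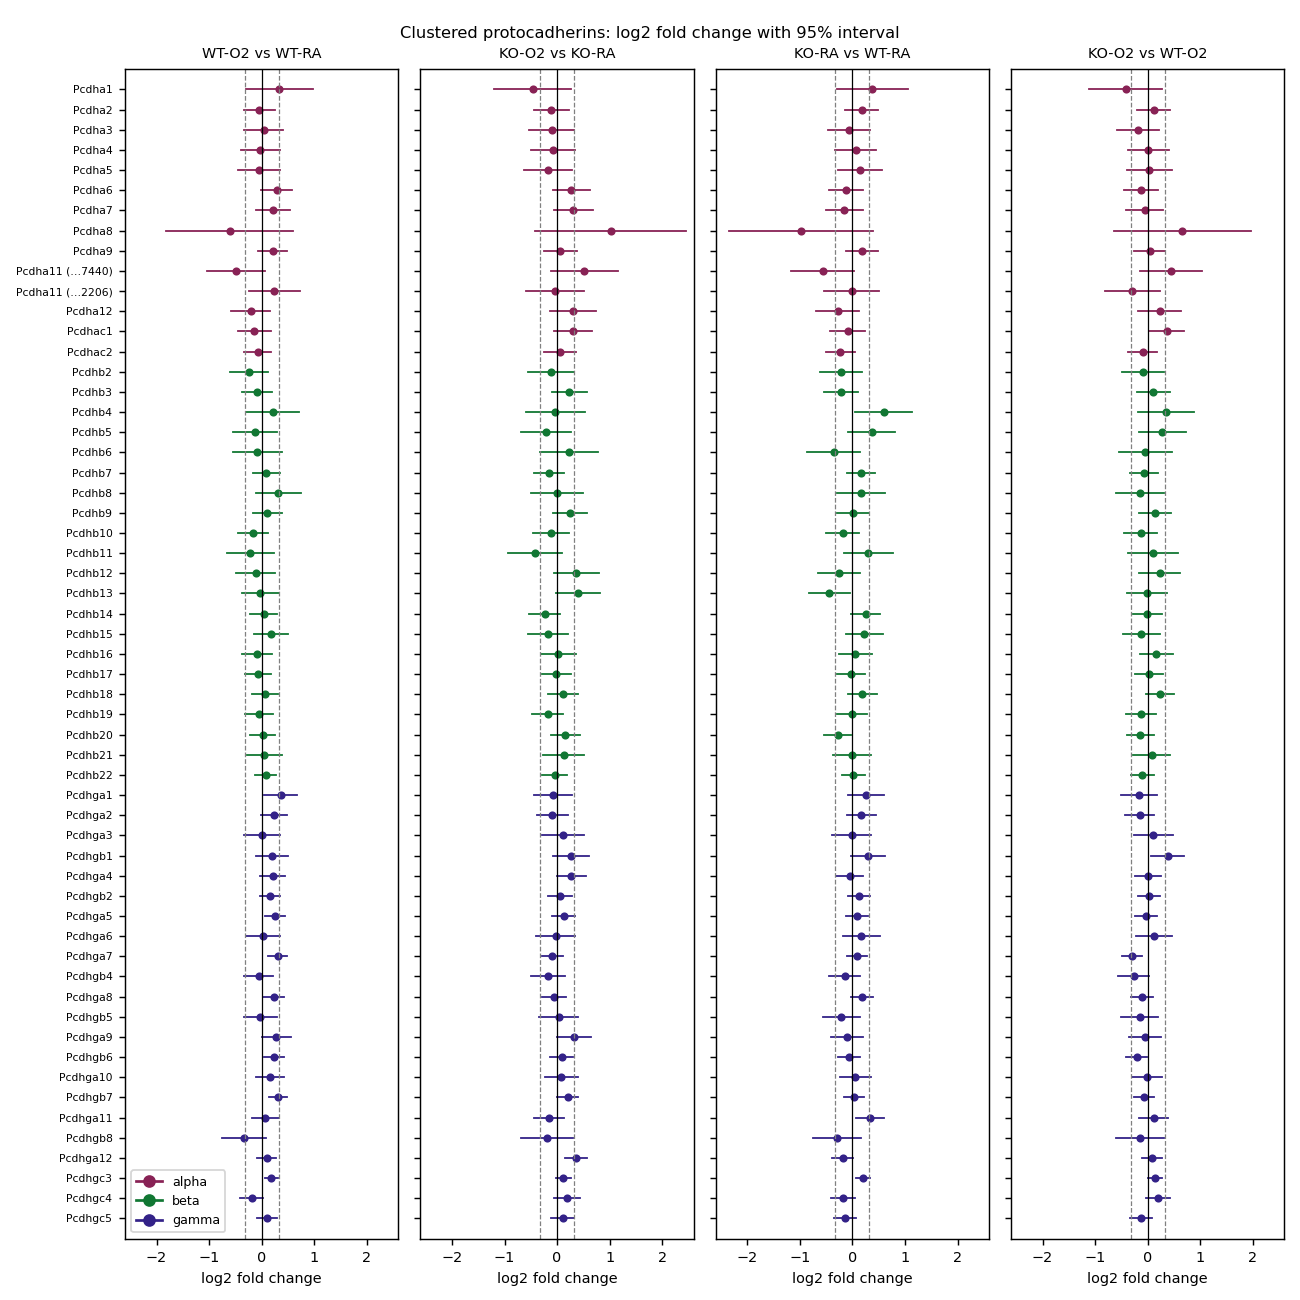
Log2 fold change of each of the 57 tested members (points) with its 95% interval (lines) from edgeR's fit in the 4 pairwise comparisons; dashed lines mark a 25% difference in either direction and colours the clusters. In WT-O2 vs WT-RA, 17 of 22 gamma genes lie to the right of 0. The widest intervals are those of Pcdha8.

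In KO mice, hyperoxia gave 2 of 57 members (3.51%) at an unadjusted p below 0.05, against 4.86% of all genes tested. The median log2 fold change in KO-O2 vs KO-RA was 0.06 over alpha, -0.01 over beta and 0.08 over gamma genes, with 14 of 22 gamma genes higher in O2. Pcdhga12, the gamma gene with the largest value, had 27.7, 27.7 and 28.1 CPM in KO-RA mice 1 to 3 and 36.3, 37.0 and 34.1 CPM in KO-O2 mice 1 to 3. The KO groups did not overlap, with a log2 fold change of 0.36 ± 0.10 (SE) and q = 0.731 in edgeR's test. In WT mice the same gene had 26.9, 35.3, 35.1 and 29.5 CPM in room air and 36.7, 35.7, 30.9 and 31.9 CPM in O2, which overlap. Pcdhgb7 was the other member, with 10.6, 12.2 and 11.3 CPM in KO-RA and 12.6, 12.5 and 14.1 CPM in KO-O2, which is a log2 difference of 0.20 ± 0.09 (SE) and q = 0.997 in edgeR's test. In 7 of 57 members (12.3%) the KO groups did not overlap, against 11.8% of all genes tested. Other extreme values were 1.02 ± 0.67 (SE) in Pcdha8 and -0.47 ± 0.34 (SE) in Pcdha1, and 0.40 ± 0.19 (SE) in Pcdhb13 and -0.42 ± 0.24 (SE) in Pcdhb11.

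**Figure D4:**
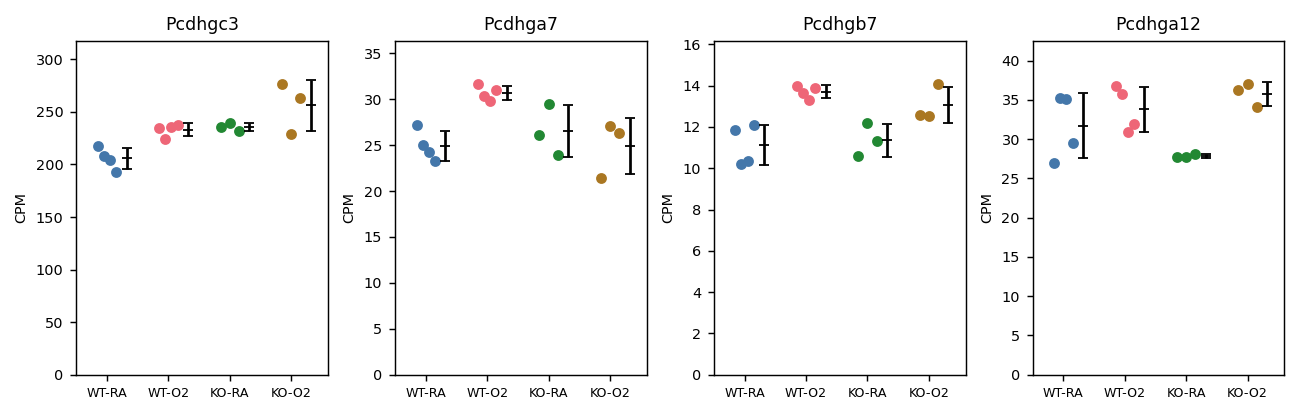
CPM of Pcdhgc3, Pcdhga7, Pcdhgb7 and Pcdhga12 in each mouse (points), with the mean and SD of each group beside them as a bar; the axes start at 0. Pcdhga7 and Pcdhgb7 are higher in all 4 WT-O2 than in all 4 WT-RA mice, and Pcdhga12 is higher in all 3 KO-O2 than in all 3 KO-RA mice.

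Whether genotype altered the response to O2 was tested by the interaction. At an unadjusted p below 0.05, 3 of 57 members (5.26%) differed, against 4.05% of all genes tested, and q was 1 for each of them in edgeR's test. Pcdhga7 was higher by 0.30 in WT-O2 vs WT-RA and had -0.09 ± 0.10 (SE) in KO-O2 vs KO-RA, a difference between the responses of -0.39 ± 0.13 (SE). Pcdhgc4 had -0.19 ± 0.10 (SE) in WT and 0.18 ± 0.11 (SE) in KO mice, a difference of 0.38 ± 0.15 (SE). The Pcdha11 row ENSMUSG00000007440 had a difference of 1.01 ± 0.39 (SE). The difference was largest in Pcdha8, at 1.63, with a 95% interval from -0.25 to 3.52, which covers 0.

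Between genotypes, fewer members than genes at large passed even the unadjusted threshold. In KO-RA vs WT-RA, 5 of 57 members (8.77%) had an unadjusted p below 0.05, against 23.5% of all genes tested. In KO-O2 vs WT-O2 the count was also 5 of 57 (8.77%), against 18.7% of all genes tested. The room air groups did not overlap in 2 members (3.51%), against 19.6% of all genes, and the O2 groups in 5 members (8.77%), against 19% of all genes. The median log2 fold change in KO-RA vs WT-RA was -0.07 over alpha, 0.01 over beta and 0.04 over gamma genes, and in KO-O2 vs WT-O2 it was 0.02, -0.01 and -0.04. The 95% interval lay within 1.5-fold in both directions for 41 of 57 members in room air and 44 of 57 in O2. It lay within the minimum difference that a call needs for only 9 of 57 in room air and 11 of 57 in O2. The intervals of most members thus covered a difference of that size, which could have gone undetected.

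The members nearest to a call in these comparisons were Pcdhgc3 and Pcdhga7, whose q was below 0.1 but whose difference was below 25%. Pcdhgc3 had 236, 239.8 and 232 CPM in KO-RA mice 1 to 3, all above the 4 WT-RA mice. Its log2 fold change in KO-RA vs WT-RA was 0.20 ± 0.06 (SE), with q = 0.0639 in edgeR's test. In O2 it had 276, 229 and 263 CPM in KO mice and overlapped the WT-O2 mice, with 0.14 ± 0.06 (SE) and q = 0.262. Pcdhga7 had 21.4, 27.1 and 26.3 CPM in KO-O2 mice 1 to 3, all below the 4 WT-O2 mice, and its log2 fold change in KO-O2 vs WT-O2 was -0.30 ± 0.09 (SE), with q = 0.0658 in edgeR's test. With WT-O2 mouse 4 as WT-RA, q in edgeR's test was 0.195 for Pcdhgc3 in room air and 0.202 for Pcdhga7 in O2. The comparison KO-O2 vs WT-O2 and WT-O2 vs WT-RA share the WT-O2 mice. In room air Pcdhga7 had 26.1, 29.5 and 23.9 CPM in KO-RA mice, which overlapped WT-RA.

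The largest values between genotypes were spread over all 3 clusters. In KO-RA vs WT-RA, Pcdhb4 had 2.6, 4.09 and 3.27 CPM in KO-RA and 2.87, 2.47, 2.26 and 1.22 CPM in WT-RA mice. Its log2 fold change was 0.59 ± 0.25 (SE) with q = 0.162 in edgeR's test, and the groups overlapped. Pcdhb13 had -0.44 ± 0.18 (SE) with q = 0.158, and Pcdhga11 0.34 ± 0.13 (SE) with q = 0.117 in edgeR's test. Pcdhga11 had 59.3, 57.4 and 42.2 CPM in KO-RA and 39.5, 46.8, 47.9 and 33.4 CPM in WT-RA mice, so KO-RA mouse 3 lay among the WT-RA mice. With WT-O2 mouse 4 as WT-RA both Pcdhb4 and Pcdhga11 were called, with 0.66 and 0.35 and q = 0.0691 and 0.0741 in edgeR's test. Of the alpha genes, Pcdha1 had 0.38 and Pcdha8 -0.98, each with an interval that covered 0, and Pcdhgb8 had the lowest gamma value with -0.30. With striatal and thalamic marker levels as covariates, Pcdhga11 turned to -0.33 ± 0.28 (SE), Pcdha1 to -0.54 ± 0.52 (SE) and Pcdhgb8 to 0.34 ± 0.47 (SE), none of them called. In KO-O2 vs WT-O2 the highest values were 0.66 in Pcdha8, 0.35 in Pcdhb4 and 0.38 in Pcdhgb1, and the lowest were -0.42 in Pcdha1, -0.15 in Pcdhb8 and that of Pcdhga7. Here Pcdhgb1 had an unadjusted p of 0.0252 and q = 0.18 in edgeR's test.

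The other C-type genes gave no call. Pcdhac2 had 99.6, 124, 163 and 125 CPM in WT-RA, 132, 126, 115 and 111 CPM in WT-O2, 119, 107 and 100.01 CPM in KO-RA and 101, 112 and 126 CPM in KO-O2 mice. WT-RA held both the highest and the lowest Pcdhac2 level. Its 95% interval in KO-RA vs WT-RA ran from -0.51 to 0.05 on the log2 scale, and in WT-O2 vs WT-RA from -0.34 to 0.18. With striatal and thalamic marker levels as covariates, Pcdhac2 in KO-RA vs WT-RA went from -0.23 to -0.71 ± 0.19 (SE), without a call. The median over 14 alpha genes went from -0.07 to -0.46 in the same fit. Pcdhac1 had 0.36 ± 0.16 (SE) in KO-O2 vs WT-O2, with q = 0.223 in edgeR's test, and was called in a fit of those 2 groups alone, with 0.37 and q = 0.059. Pcdhgc4 and Pcdhgc5 had values between -0.19 and 0.20 in the 4 pairwise comparisons, with q of at least 0.342 in edgeR's test.

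The non-clustered protocadherins, which lie elsewhere in the genome and serve cell adhesion and sorting, gave calls between genotypes. Of the 12 on the list, 6 were called in KO-RA vs WT-RA, 1 higher and 5 lower in KO, and 7 in KO-O2 vs WT-O2, 1 higher and 6 lower, with 0 called for exposure or the interaction. In these genotype comparisons 10.4% and 6.86% of all genes tested were called. Whether the list differed from those shares or from the clustered members was not tested. Pcdh20 had 115.9, 82.4 and 94.9 CPM in KO-RA and 61.0, 57.2, 45.3 and 50.6 CPM in WT-RA mice, without overlap. It was higher by 0.87 ± 0.12 (SE) on the log2 scale, with q = 0.000609 in edgeR's test, and by 0.62 ± 0.12 (SE) in O2. Pcdh7, a delta protocadherin, had 79.0, 83.6 and 83.5 CPM in KO-RA and 105, 126, 152 and 152 CPM in WT-RA mice. Its log2 fold change was -0.70 ± 0.10 (SE) in room air and -0.78 ± 0.10 (SE) in O2, with q = 0.000889 and 0.000907 in edgeR's test. The delta protocadherins Pcdh9, Pcdh10, Pcdh11x and Pcdh18 were also lower in KO in both comparisons, with log2 fold changes of -0.52, -0.52, -0.57 and -0.58 in room air and -0.35, -0.53, -1.06 and -0.98 in O2. Pcdh17 was lower in O2, with -0.42, and had -0.22 in room air with q = 0.244. Pcdh1, the highest of the list, was not called. Some of these calls did not hold in every fit with 1 mouse left out, though their sign did. In room air those of Pcdh11x (-0.67 to -0.42 with 1 mouse left out) and Pcdh18 (-0.67 to -0.42) were lost without WT-RA mouse 4, KO-RA mouse 1 or KO-RA mouse 3. In O2 the call of Pcdh17 (-0.53 to -0.35) was lost without WT-O2 mouse 2, KO-O2 mouse 1 or KO-O2 mouse 3, and that of Pcdh9 (-0.37 to -0.29) without WT-O2 mouse 4 or, at -0.29, with that mouse as WT-RA.

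**Figure D5:**
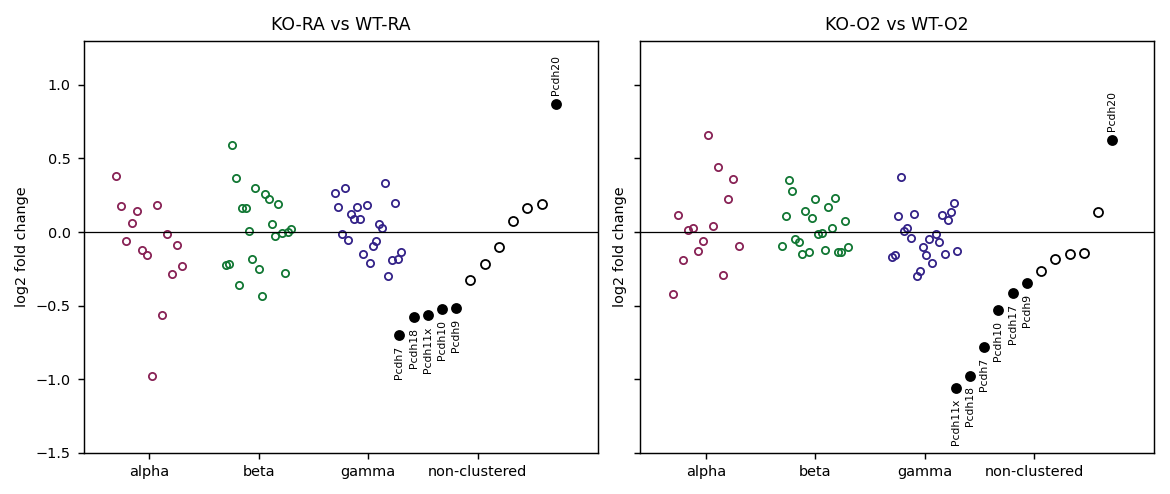
Log2 fold change between genotypes of the 57 tested clustered members (open coloured points, by cluster) and the 12 non-clustered protocadherins (black, filled and named where called) in room air and in O2. No clustered member is called, and 6 and 7 non-clustered ones are, of which only Pcdh20 is higher in KO in both. Of all genes tested, 10.4% were called in room air and 6.86% in O2.

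Regional and glial markers moved with the same comparison. Of 10 striatal markers 10 were called lower in KO in room air and 10 in O2, of 8 thalamic markers 5 and 5, and of 7 oligodendrocyte markers 7 and 4, while of 10 hippocampal markers 10 and 6 were called higher. Of 5 GABAergic markers 3 and 2 were called lower and of 6 astrocyte markers 2 and 2 higher. Of 6 neuronal markers 0 were called in either, and neither were microglia, endothelial or choroid plexus markers. The shares called over all genes tested were 10.4% in room air and 6.86% in O2. Whether the marker lists differed from those shares was not tested. Choroid plexus markers summed to between 37.6 and 3417 CPM and differed between mice of 1 group. No WT striatal sum overlapped a KO sum, so these markers and genotype cannot be told apart. With the striatal and thalamic marker levels as covariates the median SE over all genes went from 0.11 to 0.26 in KO-RA vs WT-RA, and the calls from 1738 to 3 there and from 1142 to 2 in KO-O2 vs WT-O2. None of the 12 non-clustered protocadherins was then called between genotypes, with 0.40 ± 0.24 (SE) in Pcdh20 and -0.55 ± 0.16 (SE) in Pcdh7 in room air. Under the same covariates the median in KO-RA vs WT-RA went from -0.07 to -0.46 over alpha, from 0.01 to -0.29 over beta and from 0.04 to -0.18 over gamma genes. In WT-O2 vs WT-RA the covariates took the calls over all genes from 107 to 303, among them Pcdh8 of the non-clustered genes with 0.38 ± 0.10 (SE), while the gamma median was 0.14.

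The machinery around the clusters was likewise without calls, on short lists. Over all genes tested, 10.4% were called in KO-RA vs WT-RA and 6.86% in KO-O2 vs WT-O2. Whether the lists differed from those shares was not tested. Of 16 genes for CTCF, the cohesin ring and its loaders, and the silencing factors Smchd1, Setdb1 and the DNA methyltransferases, 0 were called in any comparison. Ctcf, the insulator protein that loops enhancers to the promoters of the clusters, had 0.13 in KO-RA vs WT-RA and 0.05 in WT-O2 vs WT-RA on the log2 scale. Dnmt3a, the highest of the list, had -0.28 in KO-O2 vs WT-O2, with q = 0.0499 but a difference below 25%. Of 8 neighbouring genes tested outside and between the clusters 0 were called, and Zmat2, the highest, had 0.25 in KO-RA vs WT-RA with q = 0.0456, also below 25%.

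Of 18 genes for intracellular partners of the clustered protocadherins and for the proteases that cut them, 3 were called in KO-RA vs WT-RA and 2 in KO-O2 vs WT-O2, and 0 for exposure or the interaction. Among all genes tested, 10.4% and 6.86% were called in these genotype comparisons, and whether the list differed from those shares was not tested. Ptk2b, the kinase PYK2 that alpha and gamma proteins inhibit, was higher in KO by 0.42 ± 0.12 (SE) in room air and 0.47 ± 0.12 (SE) in O2 on the log2 scale. Of the WAVE complex, which remodels actin, Cyfip1 was called in room air with 0.32 ± 0.06 (SE) and Wasf1 in O2 with 0.38 ± 0.09 (SE). Cyfip1 had 0.30 in O2 and Wasf1 0.32 in room air, both just below the 25% difference. Marcks, an actin-binding target of protein kinase C, was lower in KO with -0.45 ± 0.07 (SE) in room air and had -0.29 in O2, below 25%. Cyfip2, the highest of the list, and the protease Adam10 were not called. With 1 mouse left out, Cyfip1 ran from 0.25 to 0.38 and lost its call without WT-RA mouse 2, WT-RA mouse 4 or KO-RA mouse 1. Ptk2b lost its call in room air without KO-RA mouse 1 (0.30 to 0.52), and in O2 Ptk2b (0.41 to 0.53) and Wasf1 (0.31 to 0.44) lost theirs without KO-O2 mouse 3. With the marker covariates none of these 5 calls held, and Wasf1 in O2 turned to -0.10 ± 0.19 (SE).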

How the data were processed

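The deposited table holds the authors' estimated counts, 1 row per gene, which came from paired-end reads of poly(A) RNA, per the labels, and per the paper's methods were quantified with kallisto against a GRCm39 transcriptome and summed with tximport; the submitters' processing notes also name DESeq2. Tool versions and count scaling are not given in the sources used here. Counts were rounded, filtered with filterByExpr and normalized by TMM. One coefficient per group was fitted to all 14 libraries with edgeR 4.0.16 in R 4.3.3, and contrasts were tested by its two-sided quasi-likelihood F-test. DESeq2 1.42.0 was an alternative. CPM are scaled by TMM, and log2 CPM have a prior count of 2. Each library is a separate mouse, so the tests set differences between groups against the spread between mice, estimated over all groups. Symbols, transcript lengths, exons and 31-base stretches came from GENCODE vM21 and RefSeq on GRCm38, an older build, so no coordinates are given and no sequence is printed.

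The members follow the symbol rule. They and the gene lists were chosen with earlier results of these data known. The genes named are the C-type genes, the highest and lowest of each cluster, those with the largest and smallest log2 fold change of each cluster per comparison, called genes of the lists and the highest gene of each list; marker lists are given by sums and counts. Others were named after their values were seen. One gene of the lists is not reported here by name. The fit was tested on simulated data. The alternatives were DESeq2, other scalings, filters and thresholds, fits of the 2 groups compared, WT-O2 mouse 4 as WT-RA, marker covariates and each mouse left out in turn.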

Additional observations from a re-analysis of the deposited data

Results flagged for a closer look

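In the groups of 4 mice, 1 mouse stood far from the other 3 in 4 of 164 sets of values examined (2.44%), where chance gives about 1 in 20. Pcdhgb8 had 3.41 CPM in WT-O2 mouse 2 and 2.20 to 2.31 CPM in the other WT-O2 mice. In the same mouse Pcdh11x had 42.4 CPM, against 29.1 to 30.3 CPM, and Pcdh17 had 154 CPM, against 133.8 to 134.9 CPM. Pcdhac1 made up 5.23% of the alpha cluster per kilobase in WT-RA mouse 2 and 3.97% to 4.16% in the other WT-RA mice.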

How the results depend on the processing

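The count of 0 members called in KO-O2 vs KO-RA and in the interaction held under every alternative run. In KO-RA vs WT-RA it was 1 with DESeq2 and with no filter on low counts (Pcdhga11 in both), and 2 with WT-O2 mouse 4 as WT-RA (Pcdhb4 and Pcdhga11). In KO-O2 vs WT-O2 it was 1 with library size alone (Pcdhga7) and 2 in a fit of the 2 groups compared (Pcdhgb1 and Pcdhac1). Without a minimum fold change, an alternative chosen after seeing the data, it was 1 in KO-RA vs WT-RA (Pcdhgc3) and 1 in KO-O2 vs WT-O2 (Pcdhga7). Leaving out each mouse in turn gave 0 to 2 members called in WT-O2 vs WT-RA, 0 to 2 in KO-RA vs WT-RA and 0 to 1 in KO-O2 vs WT-O2. The 2 in WT-O2 vs WT-RA were Pcdhga7 and Pcdhgb7, without WT-RA mouse 1. In KO-RA vs WT-RA members were called without WT-RA mouse 1 (Pcdhb4 and Pcdhb14), mouse 2 (Pcdhga11) or mouse 3 (Pcdha1 and Pcdhga11), and without KO-RA mouse 1 (the Pcdha11 row ENSMUSG00000007440) or mouse 3 (Pcdhga11 and Pcdhb20). In KO-O2 vs WT-O2 they were called without WT-RA mouse 4 (Pcdhgb1) or KO-O2 mouse 2 (Pcdhga7). The cause was not tested. Over all genes, DESeq2 called 310 in WT-O2 vs WT-RA, where edgeR called 107, and 13 in KO-O2 vs KO-RA, where edgeR called 2. The count of 7 gamma genes higher in WT-O2 at an unadjusted p below 0.05 was 3 with WT-O2 mouse 4 as WT-RA, and 5 to 10 without each WT mouse in turn.

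The differences in summed levels moved by less than the spread between mice, except gamma in KO-RA vs WT-RA, whose log2 ratio of 0.03 ran from -0.013 to 0.090 with 1 mouse left out, the latter without KO-RA mouse 3. The counts that follow take only the lowest and the highest value of each gene and comparison from the fits with 1 mouse left out. Other such fits held further turns in sign and changes of call. In this count, 10 log2 fold changes of named genes turned in sign. With the marker covariates, KO-RA vs WT-RA gave -0.54 in Pcdha1, -0.33 in Pcdhga11 and 0.34 in Pcdhgb8, and KO-O2 vs WT-O2 gave -0.62 in Pcdha8 and -0.10 in Wasf1. With WT-O2 mouse 4 as WT-RA, Pcdhac2 in WT-O2 vs WT-RA was 0.000165. With 1 mouse left out, WT-O2 vs WT-RA ran from -0.97 to 0.34 in Pcdha8 and from -0.18 to 0.063 in Pcdhac2 (both highest without WT-RA mouse 3), KO-O2 vs KO-RA from -0.032 to 0.13 in Pcdhac2 and KO-RA vs WT-RA from -0.23 to 0.031 in Pcdhac1. Counted this way, the alternatives gave 869 values of the 73 named gene differences, of which 806 kept direction and side of the threshold. Without a turn in sign, 40 lost a call and 13 gained one. Of these losses 17 came with the marker covariates and 12 with a fold change of 1.5. The covariates also took the call of Wasf1 in O2, whose sign turned. The thresholds of 1.5-fold and of q below 0.05 reuse the main fit, so direction was fixed there and no call could be gained. They gave 61 and 73 of the 806. No paired analysis was possible because the replicate numbers follow the order of the records and pair no mice.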
